A study of Mus musculus with 12 samples.

Results

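The genes described here are the small leucine-rich proteoglycan (SLRP) genes of 10T1/2 cells. They were chosen by name, as the rows of the deposited count table whose gene symbol is Dcn, Bgn, Fmod, Lum, Ogn, Omd, Prelp, Aspn, Podn or Kera. All 10 were found, each under 1 Ensembl identifier, among 56748 genes in the table. Of the 16465 genes with enough counts to be tested, 9 were members, and Kera was not among them. RNA was sequenced from 12 libraries, 4 in each of 3 groups, to ask how the transcriptome of mesenchymal progenitors responds to aortic carboxypeptidase-like protein (ACLP), a secreted protein of the extracellular matrix, when it is bound to collagen. C3H10T1/2, written CH310T1/2 in the sample records, is an established mouse cell line, and all libraries carry the genotype WT. In every group serum-starved cells were kept in suspension for 1 h and then grown for 18 h on hydrogels of 12 kPa that carried type I collagen polymerised at 0.05 mg/ml. The collagen had no ACLP in the col1 group, held 30 nM recombinant ACLP in the col1-ACLP group, and held the same ACLP in the col1-ACLP+SB group, where the cells also received SB431542, an inhibitor of the kinase ALK5 (TGFβR1), at 5 µM. No group received SB431542 without ACLP, so an effect of the inhibitor on col1 alone cannot be told apart from an effect on the response to ACLP. All groups come from 1 cell line, and the study calls the libraries of a group biological replicates, although neither it nor the sample records say how the cultures were separated. The p-values set differences between groups against the spread between these libraries.

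SLRPs are secreted matrix proteins whose core is a curved stack of leucine-rich repeats. Most bind collagen fibrils and set their diameter and spacing, and many carry glycosaminoglycan chains, chondroitin or dermatan sulphate on decorin and biglycan and keratan sulphate on fibromodulin, lumican and keratocan. Several also bind growth factors, in particular transforming growth factor β, or cell surface receptors. In tendon, skin, cornea and cartilage the loss of single members in mice gives fibrils of abnormal shape.

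The labelled cell type, mesenchymal stem cells, was checked against marker genes. Of 14 mesenchymal markers, 12 had a mean of at least 1 CPM (counts scaled to a common library size) in every group, and the exceptions, Nt5e and Twist2, were the same in all 3. The 14 summed to 34285 to 35500 CPM on col1, 44186 to 53098 on col1-ACLP and 40803 to 46329 with the inhibitor. Among 8 immune markers Ptprc, Itgam and Csf1r stayed under 1 CPM, and Epcam, Pecam1, Cdh5 and Adipoq, markers of epithelium, endothelium and fat cells, were under 1 CPM as well. Other genes of these lists passed 1 CPM in at least 1 group: Cd68 and Lyz2 (immune), Tek, Erg and Vwf (endothelial), Cdh1 and Krt8 (epithelial), and Pparg and Fabp4 (adipocyte). The highest of them by mean were Pparg at 27.0, 17.5 and 16.2 CPM on col1, on col1-ACLP and with the inhibitor, Erg at 2.93, 11.6 and 8.48, Cd68 at 9.47, 6.73 and 8.05, and Tek at 6.45, 8.87 and 4.90. Markers of other lineages differed between groups: the summed level of 6 chondrocyte markers was 1376 to 1578 CPM on col1, 3533 to 4626 on col1-ACLP and 2845 to 3414 with the inhibitor. Col2a1 made up most of that sum, whereas Acan was at 0 in all 12 libraries. The 6 tenocyte markers, which include Fmod and Kera, summed to 104 to 113, 164 to 180 and 143 to 154 CPM, and Thbs4 was under 1 CPM in each group. The 6 adipocyte markers summed to 27.8 to 29.6, 17.3 to 20.2 and 14.2 to 18.4 CPM, and the 6 osteoblast markers to 107 to 119, 94.8 to 99.0 and 95.1 to 107 CPM. The 6 endothelial markers summed to 7.73 to 13.1, 21.2 to 23.1 and 13.3 to 16.4 CPM, the 8 immune markers to 10.0 to 11.2, 6.31 to 10.3 and 7.81 to 12.8 CPM, and the 6 epithelial markers to at most 5.04 CPM in any library. The part of these shifts in the results below was not tested.

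Total counts per library ran from 29246154 to 52201922, at which 3 counts are worth 0.0579 to 0.106 CPM. The library labelled col1 replicate 2 stood apart from the other 3 of its group on the first principal component, at -86.7 against -11.1 to -8.97, while the 8 libraries with ACLP lay between 10.0 and 20.6. Calls on the members were the same without col1 replicate 2, and among members its effect on the log2 fold change is given below for Omd alone. Calls rest on the quasi-likelihood test of edgeR, whose p was adjusted over all 16465 genes by the method of Benjamini and Hochberg. To be called, a gene needed an adjusted p under 0.05 together with a log2 fold change above 0.58 (higher) or below -0.58 (lower).

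Most of the 10 genes lie in 3 chromosomal clusters, all positions being GRCm39. Dcn (chr10:97315471-97354005), Lum (chr10:97400990-97408565) and Kera (chr10:97442741-97449554) follow each other on the plus strand of chromosome 10, and the related gene Epyc comes next. Aspn (chr13:49697919-49721041), Omd (chr13:49735938-49746298) and Ogn (chr13:49761522-49777977) do so on chromosome 13, inside the span of Cenpp, a centromere protein gene of the opposite strand with 69 to 166 counts per library. Prelp (chr1:133838042-133849152, minus strand) and Fmod (chr1:133964992-133976015, plus strand) lie close to each other on chromosome 1, with Gm1627 and ENSMUSG00000120798 between them among the genes tested. Prelp overlaps the noncoding gene Gm15851 of the opposite strand, which had 0 to 18 counts. Bgn (chrX:72527208-72539539) and Podn (chr4:107871988-107953642, minus strand) stand alone. The listed span of Podn overlaps Scp2, which lies on the same strand and had 4090 to 8305 counts per library. The RefSeq promoter windows of Podn, described below, begin at chr4:107889152 and chr4:107888184, outside the span of Scp2, whose lower end is at chr4:107901036. How reads in any shared exons were assigned is not given in the sources used here, so the values of Podn are uncertain.

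Promoters of Fmod, Prelp and Omd, the 3 members called higher on col1-ACLP, and of Ogn, which was not called, were read from the RefSeq table of GRCm38.p6 and placed on GRCm39 by an exact single match. The table had an entry for 8 of the 10 members. The 250 bases before the RefSeq start are shown 5′ to 3′ on the strand of the gene, with matches to a searched motif in capitals. Fmod is at chr1:133964742-133964991 (plus), Prelp at chr1:133849140-133849389 (minus), Omd at chr13:49735688-49735937 (plus) and Ogn at chr13:49761241-49761490 (plus).
Fmod: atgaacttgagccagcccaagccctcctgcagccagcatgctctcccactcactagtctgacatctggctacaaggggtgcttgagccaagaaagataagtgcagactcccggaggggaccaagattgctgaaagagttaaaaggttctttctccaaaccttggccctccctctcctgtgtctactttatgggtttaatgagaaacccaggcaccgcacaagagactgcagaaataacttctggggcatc
Prelp: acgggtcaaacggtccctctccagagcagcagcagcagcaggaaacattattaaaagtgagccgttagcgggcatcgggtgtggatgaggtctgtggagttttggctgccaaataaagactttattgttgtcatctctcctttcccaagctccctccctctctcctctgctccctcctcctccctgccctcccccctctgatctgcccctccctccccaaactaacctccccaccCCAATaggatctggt
Omd: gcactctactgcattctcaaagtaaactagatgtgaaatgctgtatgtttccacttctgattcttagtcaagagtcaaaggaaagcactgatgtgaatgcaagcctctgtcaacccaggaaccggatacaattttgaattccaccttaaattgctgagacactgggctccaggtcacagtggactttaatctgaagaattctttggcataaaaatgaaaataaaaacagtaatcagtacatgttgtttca
Ogn: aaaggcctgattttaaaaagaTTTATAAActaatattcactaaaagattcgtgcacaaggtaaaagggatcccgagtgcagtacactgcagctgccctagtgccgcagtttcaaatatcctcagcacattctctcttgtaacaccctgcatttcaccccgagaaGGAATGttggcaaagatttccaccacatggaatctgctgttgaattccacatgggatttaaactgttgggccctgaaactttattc
The motifs searched on both strands were the TATA box as TATAAA, the motif CAGACA bound by SMAD proteins, the CCAAT box, the AP-1 site as TGAGTCA, the TEAD site as GGAATG and the CArG box of serum response factor. Fmod and Omd held none of them in this window. Prelp held 1 CCAAT, which begins 15 bases before the RefSeq start and is present in 33.8% of 32851 RefSeq promoter windows of the same length. Ogn held TATAAA on both strands in 1 overlapping run that begins 229 bases before the start, and 1 GGAATG that begins 86 bases before it. TATAAA is found in 12.4% and GGAATG in 12.6% of the 32851 windows, and the motifs not matched here in 17.1% (SMAD), 4.46% (AP-1) and 1.47% (CArG box). Among the other members with an entry, Aspn held 2 matches to TATAAA and 1 to the CCAAT box, Kera held 3 to the CCAAT box, and Bgn and Podn held none of the 6 motifs. The 2 windows of Podn lie 64491 and 65459 bases from the gene start listed in the count table. The 3 members called higher shared no match. These letters are a description of the windows and say nothing of factors bound in these cells.

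Levels of different genes were compared per length, as FPKM computed from the counts and the gene lengths in the table. Bgn was the leading member in each group, with 550 FPKM on col1, and it ranked 36 among the 16465 tested genes. Ogn (316 FPKM, rank 72), Prelp (181 FPKM, rank 160) and Aspn (176 FPKM, rank 165) followed. The other members were much lower on col1, from 14.3 FPKM for Dcn (rank 3489) through 9.86 for Fmod, 8.48 for Lum and 6.34 for Omd to 5.75 for Podn (rank 6910). Ranges over the 4 col1 libraries overlapped between Prelp and Aspn and between each neighbouring pair in the run Fmod, Lum, Omd and Podn, while Bgn, Ogn and Dcn were each apart from the gene next below. The 4 leading members made up 96.5% of the summed FPKM on col1, 97.1% on col1-ACLP and 97.2% for col1-ACLP+SB.

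The order changed with the groups. On col1-ACLP the order by mean FPKM was Bgn (742), Prelp (316), Ogn (307), Aspn (199), Fmod (24.9), Omd (11.3), Dcn (4.56), Podn (3.21) and Lum (2.50). Prelp and Ogn overlapped there, as did Podn and Lum, and the other neighbours did not. Dcn, which led the lower members on col1, was thus behind Fmod and Omd, and the 2 mean levels of Prelp and Ogn swap places without col1-ACLP replicate 4. On col1-ACLP+SB the order was Bgn (723), Ogn (302), Prelp (284), Aspn (181), Fmod (20.3), Omd (9.55), Dcn (5.60), Podn (3.94) and Lum (3.06), with overlap again between Ogn and Prelp and between Podn and Lum.

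**Figure D1:**
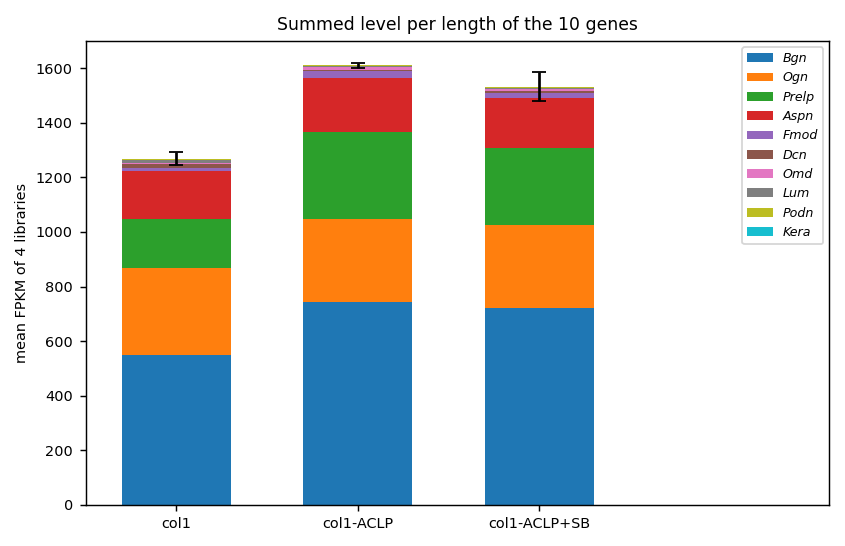
Mean FPKM of the 10 genes stacked by group (4 libraries each, linear axis from 0), with the SD of the summed FPKM as the error bar. The sum was 1269 ± 23.8 on col1, 1611 ± 9.10 on col1-ACLP and 1532 ± 53.2 in the col1-ACLP+SB libraries, and Bgn, Ogn, Prelp and Aspn fill nearly all of each bar.

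The summed level of the 10 genes was 1269 ± 23.8 FPKM (SD, n = 4) on col1, 1611 ± 9.10 on col1-ACLP and 1532 ± 53.2 with SB431542, and the col1 libraries did not overlap those with ACLP. Bgn held 43.4% of the sum on col1, 46.1% on col1-ACLP and 47.2% with the inhibitor. The share of Prelp was 14.3%, 19.6% and 18.5%, and that of Ogn 24.9%, 19.1% and 19.7%. Dcn made up 1.13% on col1 and 0.283% and 0.366% on the 2 matrices with ACLP.

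The class I members, which carry chondroitin or dermatan sulphate or, in the case of asporin, a run of aspartates, did not move together. Dcn encodes decorin, which binds collagen fibrils and transforming growth factor β. It had 68.9, 88.9, 85.0 and 91.3 CPM in the col1 libraries, 26.9, 27.0, 28.7 and 23.9 in the col1-ACLP libraries and 37.2, 32.2, 30.2 and 31.2 in the col1-ACLP+SB libraries. The 3 groups did not overlap, with col1 highest and col1-ACLP lowest. The mean fell from 83.5 ± 10.1 CPM (SD, n = 4) on col1 to 26.6 ± 2.00 on col1-ACLP, 3.14-fold and a log2 fold change of -1.65 (SE 0.0880, edgeR adjusted p = 3.65e-13). Against col1, col1-ACLP+SB was at 32.7 ± 3.10 CPM, a log2 fold change of -1.35 (edgeR adjusted p = 2.47e-11). In these bulk libraries fewer cells that make a transcript and less of it per cell cannot be told apart, for Dcn and all genes below.

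Bgn encodes biglycan, a close relative of decorin that is also a ligand of Toll-like receptors when soluble. Its levels were 3391, 3349, 3208 and 3477 CPM on col1, 4484, 4467, 4428 and 4720 on col1-ACLP and 4279, 4507, 4628 and 4224 for col1-ACLP+SB. Every library with ACLP was above every col1 library, and the 2 groups with ACLP overlapped. The log2 fold change was 0.43 (SE 0.0359, edgeR adjusted p = 1.17e-09) on col1-ACLP and 0.39 (edgeR adjusted p = 1.39e-08) in the col1-ACLP+SB libraries, so Bgn was higher but under the bar of 0.58 that a call asks for. Since Bgn is so abundant, this 1.35-fold difference in CPM was the largest addition to the summed FPKM, from 550 to 742.

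Aspn encodes asporin, a class I member that lacks the usual attachment site for a glycosaminoglycan chain. It had 410, 431, 401 and 416 CPM on col1, 463, 496, 478 and 438 on col1-ACLP and 461, 376, 441 and 429 with SB431542. The col1-ACLP libraries were all above those on col1, though the nearest differed little, and col1-ACLP+SB spanned both. The log2 fold change was 0.18 (edgeR adjusted p = 0.0216) on col1-ACLP and 0.042 (95% interval -0.069 to 0.15, edgeR adjusted p = 0.754) with the inhibitor, and neither was called. The adjusted p on col1-ACLP rose above 0.05 with library size alone (0.124), without col1 replicate 1 (0.0523) or 3 (0.0692) and without col1-ACLP replicate 2 (0.0966) or 3 (0.0598), all with edgeR.

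**Figure D2:**
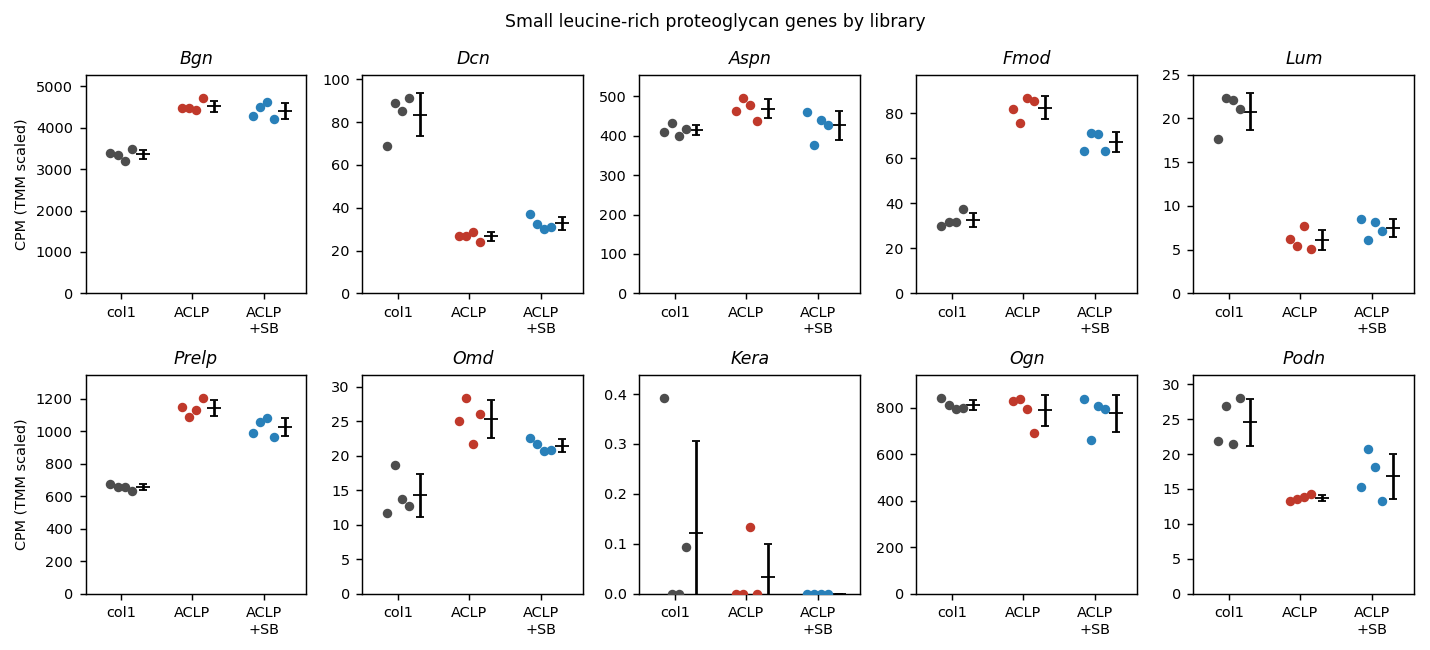
CPM with TMM scaling of each of the 10 genes in the 12 libraries (points, replicates 1 to 4 from left to right in each group, with ACLP and ACLP+SB for col1-ACLP and col1-ACLP+SB), with the mean and SD of 4 libraries beside them. Each panel has a linear axis from 0: Dcn, Lum and Podn are highest on col1, Bgn, Fmod, Prelp and Omd are lowest there, Ogn and Aspn overlap between col1 and col1-ACLP+SB, and Kera has counts in 3 libraries.

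Of the class II members, Fmod, Prelp and Omd rose with ACLP and Lum fell. Fmod encodes fibromodulin, which binds type I collagen and shapes fibril growth and cross-linking. Levels were 29.8, 31.7, 31.7 and 37.3 CPM on col1, 81.8, 75.6, 86.7 and 85.5 on col1-ACLP and 63.3, 71.1, 70.6 and 63.4 for col1-ACLP+SB. No groups overlapped, and the libraries with inhibitor lay between the others. The rise on col1-ACLP was 2.52-fold, with a log2 fold change of 1.34 (SE 0.0734, edgeR adjusted p = 6.08e-13), and on col1-ACLP+SB the log2 fold change against col1 was 1.04 (edgeR adjusted p = 1.39e-10).

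Lum encodes lumican, a keratan sulphate proteoglycan best known for its role in the transparency of the cornea. It had 17.7, 22.3, 22.1 and 21.0 CPM on col1, 6.23, 5.45, 7.72 and 5.07 on col1-ACLP and 8.46, 6.14, 8.20 and 7.14 in the col1-ACLP+SB libraries. All col1 libraries were above the rest, and the groups with ACLP overlapped. The fall was 3.40-fold on col1-ACLP and gave a log2 fold change of -1.76 (SE 0.144, edgeR adjusted p = 7.78e-10), and the log2 fold change on col1-ACLP+SB was -1.47 (edgeR adjusted p = 3.32e-08). Among the log2 fold changes of all 16465 genes on col1-ACLP, Lum stood at percentile 0.692 and Dcn at 0.911, and Fmod at 98.7.

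Prelp encodes a member with a basic stretch rich in proline and arginine that binds heparan sulphate. Its levels were 676, 659, 659 and 631 CPM on col1, 1150, 1090, 1131 and 1204 on col1-ACLP and 993, 1058, 1085 and 966 with SB431542. The groups were apart from each other, the highest inhibitor library being just under the lowest on col1-ACLP. Prelp rose 1.74-fold on col1-ACLP, with a log2 fold change of 0.80 (SE 0.0437, edgeR adjusted p = 5.30e-13), and by a log2 fold change of 0.64 on col1-ACLP+SB (edgeR adjusted p = 7.70e-11). The second call was lost with glmTreat, edgeR's test against a log2 fold change of 0.58 in place of 0 (adjusted p = 1).

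Omd encodes osteomodulin, also called osteoadherin, a keratan sulphate proteoglycan of mineralised matrix. It had 11.7, 18.7, 13.8 and 12.8 CPM on col1, 25.1, 28.4, 21.7 and 26.1 on col1-ACLP and 22.6, 21.8, 20.7 and 20.8 with the inhibitor. Replicate 2, the library that stood apart, was the highest on col1, and no col1 library reached those with ACLP. The log2 fold change was 0.83 (SE 0.119, edgeR adjusted p = 9.78e-06) on col1-ACLP, and 0.99 without col1 replicate 2. On col1-ACLP+SB it was 0.59 (edgeR adjusted p = 0.00126), just past the bar, and 0.75 without col1 replicate 2. That second call was lost, through the size of the log2 fold change, without col1 replicate 1 (0.51), col1 replicate 3 (0.58, under the bar before rounding), col1 replicate 4 (0.54) or col1-ACLP+SB replicate 1 (0.56), and also when counts were scaled by library size alone (0.57). With glmTreat both calls of Omd were lost (adjusted p = 0.280 and 1).

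Kera encodes keratocan, a member of the cornea. It had 15 and 4 counts in col1 replicates 1 and 4, 4 counts in col1-ACLP replicate 3 and 0 in the other 9 libraries, where a count of 0 allows up to 0.0579 to 0.106 CPM over the 12 libraries. It was too low to be tested, and no fold is given.

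The remaining members are of other classes. Ogn encodes osteoglycin, or mimecan, a class III member found in bone and vessel walls. Its levels were 840, 810, 796 and 798 CPM on col1, 829, 837, 794 and 692 on col1-ACLP and 839, 659, 807 and 794 for col1-ACLP+SB. All groups overlapped, with 1 low library in each of the groups with ACLP. Ogn was the only tested member whose groups overlapped in every comparison, with a log2 fold change of -0.042 on col1-ACLP (95% interval -0.17 to 0.084, edgeR adjusted p = 0.726) and of -0.066 on col1-ACLP+SB (95% interval -0.19 to 0.060, edgeR adjusted p = 0.631). These intervals leave room for changes well under the bar of 0.58 in either direction.

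Podn encodes podocan, a class V member first described in the kidney. It had 21.9, 26.9, 21.4 and 28.0 CPM on col1, 13.2, 13.5, 13.8 and 14.2 on col1-ACLP and 15.2, 20.7, 18.1 and 13.3 in the col1-ACLP+SB libraries. The col1 libraries were above all others, and the inhibitor group ran from the level of col1-ACLP almost to that of col1. Its log2 fold change was -0.84 (SE 0.123, edgeR adjusted p = 1.12e-05) on col1-ACLP, a fall of 1.79-fold, and -0.55 (edgeR adjusted p = 0.00321) on col1-ACLP+SB, which was not called. The call on col1-ACLP was lost with glmTreat (adjusted p = 0.251). The second value passed the bar without col1 replicate 1 (-0.60), col1 replicate 3 (-0.60), col1-ACLP+SB replicate 2 (-0.65) or col1-ACLP+SB replicate 3 (-0.58). Scp2, the gene whose span overlaps it, had a log2 fold change of -0.25 on col1-ACLP and -0.15 with SB431542, and the part of shared reads in the values of Podn was not tested.

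Over the members, 6 of the 9 tested were called on col1-ACLP against col1, where 4.97% of all genes tested were called. Fmod, Prelp and Omd were the 3 called higher (2.61% of all genes) and Dcn, Lum and Podn the 3 called lower (2.36% of all genes). By adjusted p alone Bgn and Aspn were also higher, which makes 5 higher and 3 lower, against 17.9% of all genes past that line (9.52% higher, 8.41% lower). The groups did not overlap for 8 of 9 members, against 21.2% of all genes. The median log2 fold change of the 9 members was 0.18 and that of all genes -0.0099.

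On col1-ACLP+SB against col1, Fmod, Prelp and Omd were called higher (1.27% of all genes) and Dcn and Lum lower (1.01% of all genes), 5 of 9 where 2.28% of all genes were called. With glmTreat Fmod alone was called higher, and Dcn and Lum lower. By adjusted p alone 4 members were higher and 3 lower, against 9.13% of all genes (4.6% higher, 4.54% lower). The groups did not overlap for 7 of 9 members, against 13% of all genes, the exceptions being Ogn and Aspn. The median log2 fold change was 0.042 for the members and 0.0046 for all genes. Both comparisons use the same 4 col1 libraries, so their values are not independent.

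The direct comparison of col1-ACLP+SB with col1-ACLP asks what the ALK5 inhibitor changed in cells on ACLP. No member was called, and 0.128% of all genes were (0.085% higher, 0.0425% lower), 21 of 16465. With edgeR 5 of the 9 members had an unadjusted p under 0.05, as 12.8% of all genes did, and DESeq2 and limma-voom also called 0. Fmod was lower with the inhibitor, by a log2 fold change of -0.30 (95% interval -0.44 to -0.15, edgeR adjusted p = 0.0335), which passes the line on the adjusted p as 1.48% of all genes did (0.571% higher, 0.905% lower) but not the bar on size. That pass was lost without col1-ACLP replicate 1 (edgeR adjusted p = 0.0778), 3 (0.122) or 4 (0.109) and without col1-ACLP+SB replicate 1 (0.108) or 4 (0.121), and with a replicate block (0.0526). Dcn had a log2 fold change of 0.30 (95% interval 0.11 to 0.48, edgeR adjusted p = 0.101) and Prelp of -0.16 (95% interval -0.25 to -0.068, edgeR adjusted p = 0.0699). With DESeq2 the adjusted p was 0.0411 for Dcn and 0.0167 for Prelp, with limma-voom 0.252 and 0.0396, and no log2 fold change of these fits passed the bar on size. Fmod, Dcn and Prelp were the 3 members whose groups did not overlap, against 8.17% of all genes.

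Lum (0.30, 95% interval -0.0027 to 0.60) and Podn (0.30, 95% interval 0.043 to 0.55) had log2 fold changes much like that of Dcn with wider intervals. Omd had -0.24 (95% interval -0.48 to 0.0045) and Aspn -0.13 (95% interval -0.25 to -0.024). Bgn was closest in the 2 groups beside Ogn, with a log2 fold change of -0.037 and a 95% interval from -0.11 to 0.037, and Ogn had -0.024 with an interval from -0.15 to 0.10. The median over members was -0.037 and over all genes 0.0049.

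**Figure D3:**
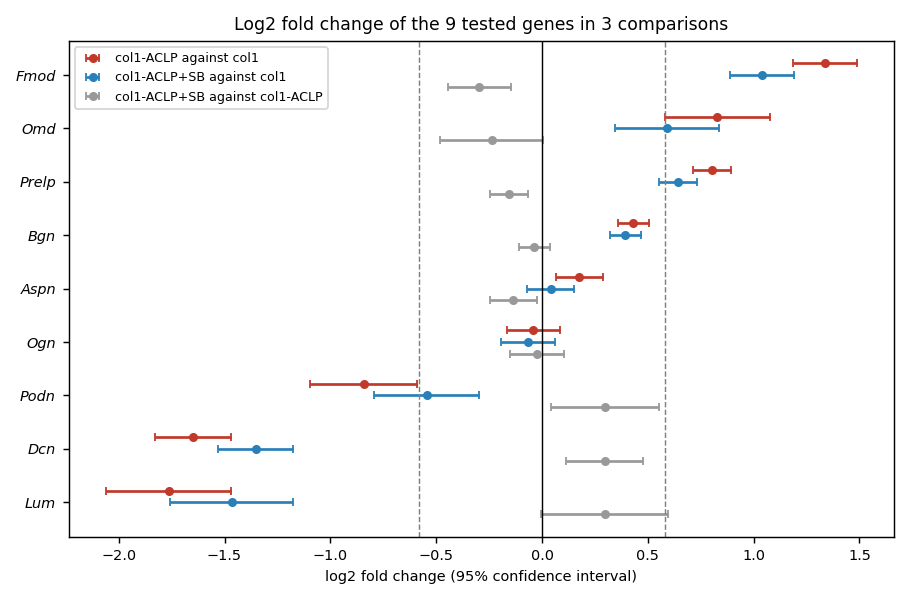
Log2 fold change with its 95% confidence interval (horizontal axis) of the 9 tested members in the 3 comparisons, with dashed lines at -0.58 and 0.58. In both comparisons with col1, Fmod, Omd and Prelp lie past the upper line and Dcn and Lum past the lower, Podn is past it on col1-ACLP alone, and all grey points for the 2 groups with ACLP lie between the lines.

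Pairs of related members moved apart, which shows within each library as a ratio that needs no scaling between libraries. The FPKM ratio of Bgn to Dcn, the pair that carries chondroitin or dermatan sulphate, was 38.9 ± 5.46 (SD, n = 4) on col1, 164 ± 17.8 on col1-ACLP and 130 ± 15.1 with the inhibitor. Fmod to Lum, a pair of class II members that bind the same region of type I collagen, had a ratio of 1.17 ± 0.131 on col1, 10.2 ± 1.73 on col1-ACLP and 6.77 ± 1.29 for col1-ACLP+SB. On col1 the Fmod and Lum transcripts were thus near the same level per length, from 1.05 to 1.31 over the libraries, and with ACLP no library was under 5.54. These ratios are a description of pairs that were chosen with the values known.

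**Figure D4:**
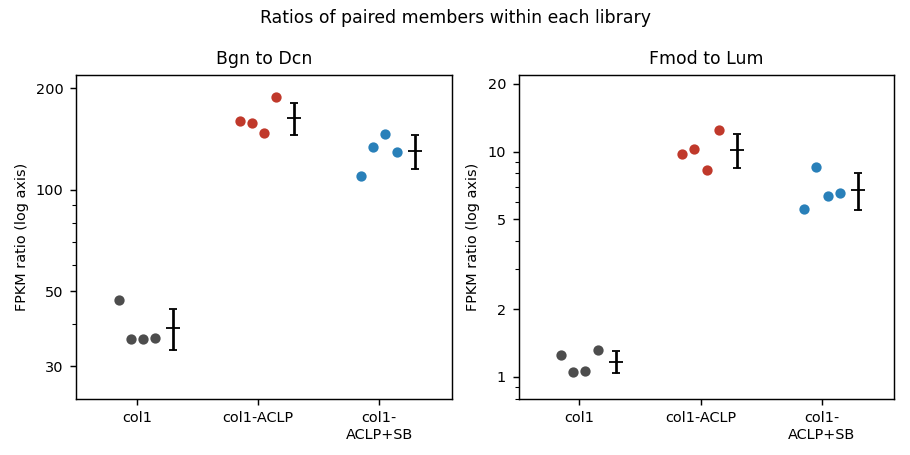
FPKM ratio of Bgn to Dcn (left) and of Fmod to Lum (right) in each of the 12 libraries, on log axes, with the mean and SD of 4 libraries beside the points. The col1 libraries lie from 36.1 to 47.1 and from 1.05 to 1.31, below all libraries with ACLP, and the col1-ACLP and col1-ACLP+SB libraries run from 110 to 189 and from 5.54 to 12.5.

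No chromosomal cluster held members called in opposite directions, though on chromosome 13 Omd alone was called, and neighbours outside the family could differ. On chromosome 10 Dcn and Lum both fell, and Epyc, the next family gene with 0.900 CPM on col1, had a log2 fold change of -0.73 on col1-ACLP (edgeR adjusted p = 0.412) and of -1.01 on col1-ACLP+SB (edgeR adjusted p = 0.304). On chromosome 13 Omd rose between Aspn and Ogn, which were not called, and beyond them Iars, a gene of an aminoacyl-tRNA synthetase, was called higher on col1-ACLP with a log2 fold change of 0.83. Ecm2, a related gene next to Aspn, had a log2 fold change of -0.19 (edgeR adjusted p = 0.121) on col1-ACLP and of -0.45 (edgeR adjusted p = 4.38e-04) in the col1-ACLP+SB libraries. On chromosome 1 Prelp and Fmod rose, while Btg2, beyond Fmod, was called lower on col1-ACLP at a log2 fold change of -0.59. Optc, the family gene beside Prelp, was at 0.564 CPM on col1 and was not called.

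**Figure D5:**
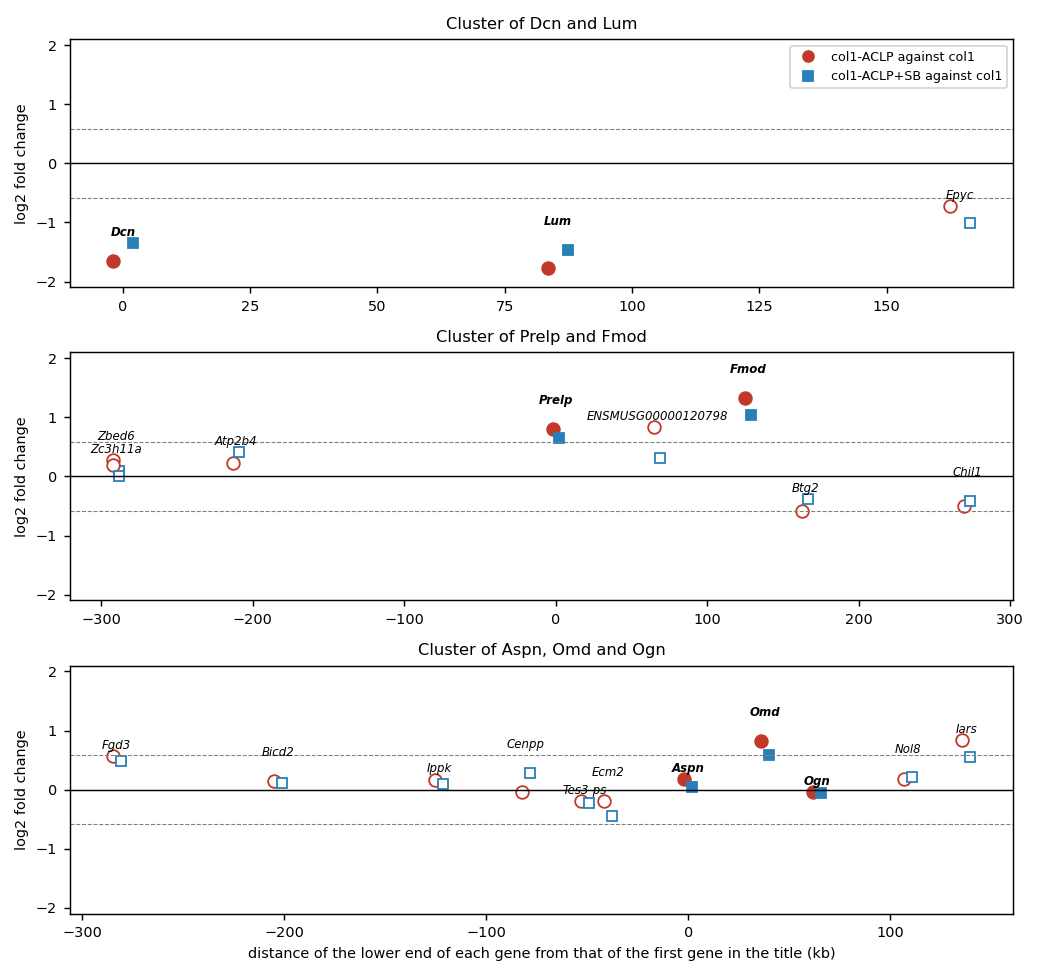
Log2 fold change against col1 (vertical axes) of tested genes within 250 kb of members in 3 chromosomal clusters, by distance from the first gene in each title in kb (circles, col1-ACLP; squares, col1-ACLP+SB). Filled marks are members and open marks neighbours with at least 1 CPM on col1, plus Epyc, and the dashed lines are at -0.58 and 0.58: Dcn and Lum lie below the lower line, Prelp, Fmod and Omd above the upper one.

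Genes of the same family outside the 10 were a list of 8, of which 6 were tested and none was called in any comparison, where 4.97% (col1-ACLP against col1), 2.28% (col1-ACLP+SB against col1) and 0.128% (between the groups with ACLP) of all genes were. By adjusted p alone 1 was lower on col1-ACLP and 2 were lower with SB431542, where 8.41% and 4.54% of all genes were. Tsku, which encodes tsukushi, had log2 fold changes of -0.43 (edgeR adjusted p = 0.0238) and -0.44 (edgeR adjusted p = 0.0357), and the other was Ecm2, given above. The median of the 6 was -0.15 on col1-ACLP and -0.18 with SB431542, beside -0.0099 and 0.0046 for all genes.

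Enzymes that build the chains of SLRPs were looked at in 3 lists, to be read on col1-ACLP against 4.97% of all genes called and 17.9% past the adjusted p alone. None of the 7 enzymes of the linker that joins chain to core was called, 1 was lower by adjusted p alone, and Xylt1, which adds the first xylose, was near the detection limit at 0.229 ± 0.245 CPM on col1 and 0.465 ± 0.296 on col1-ACLP. Among 16 tested enzymes of chondroitin and dermatan sulphate, 1 was called higher and 0 lower on both matrices with ACLP. With the inhibitor the share of all genes called was 2.28%, and whether 1 call among 16 exceeds either share was not tested. By adjusted p alone 5 were higher and 0 lower on col1-ACLP. The called gene was Papss2, which makes the sulphate donor and not the chain itself. It was at 95.3 ± 5.56 CPM on col1, 200 ± 6.73 on col1-ACLP and 145 ± 8.72 with the inhibitor. Its log2 fold changes against col1 were 1.07 (edgeR adjusted p = 2.06e-13) and 0.61 (edgeR adjusted p = 1.27e-08). The median of the 16 was 0.17 on col1-ACLP and 0.068 for col1-ACLP+SB.

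In the keratan sulphate list of 6 tested enzymes, 2 sulphotransferases were called lower on col1-ACLP and 0 genes higher, and by adjusted p alone 3 were lower. Chst1, which sulphates galactose in keratan sulphate, went from 13.2 ± 1.92 CPM on col1 to 7.22 ± 0.700 on col1-ACLP and 8.53 ± 1.55 in the col1-ACLP+SB libraries, log2 fold changes of -0.87 (edgeR adjusted p = 8.33e-05) and -0.63 (edgeR adjusted p = 0.00465). Chst2, which sulphates N-acetylglucosamine, had log2 fold changes of -0.66 (edgeR adjusted p = 6.92e-05) and -0.35, the second not called. The list median was -0.26 on col1-ACLP and -0.20 with SB431542.

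The fibrillar collagens and their fibril partners, to which SLRPs bind, held 20 tested genes, of which 10 were called higher and 0 lower on col1-ACLP, and 6 higher and 0 lower on col1-ACLP+SB, where 2.61% and 1.27% of all genes were called higher. By adjusted p alone 11 were higher and 5 lower on col1-ACLP, where 9.52% and 8.41% of all genes were. With SB431542 the counts were 10 higher and 3 lower, beside 4.6% and 4.54% of all genes. The median log2 fold change of the list was 0.48 and 0.29, beside -0.0099 and 0.0046 for all genes. Col2a1, the chain of cartilage collagen, had 911 ± 75.5 CPM on col1 and 3177 ± 471 on col1-ACLP and gave a log2 fold change of 1.80 (edgeR adjusted p = 6.38e-15). Col11a1 (1.11), Thbs1 (1.05), Col5a1 (0.93), Eln (0.90) and Col5a2 (0.86) followed by log2 fold change on col1-ACLP. Col1a1, a chain of type I collagen, went from 11904 ± 161 CPM to 20962 ± 2484 (log2 fold change 0.82, edgeR adjusted p = 1.77e-10), whereas Col3a1 had 8648 ± 351 and 9094 ± 309 CPM and a log2 fold change of 0.073 (edgeR adjusted p = 0.154). Not all binding partners shared this direction, since Col6a1 and Col6a2, chains of the type VI collagen that binds decorin and biglycan, had log2 fold changes of -0.42 (edgeR adjusted p = 3.63e-09) and -0.45 (edgeR adjusted p = 4.58e-09), short of a call. Comp (-0.29), Col5a3 (-0.25) and Col11a2 (-0.19) were the others lower by adjusted p alone.

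Among 11 tested proteases that cut SLRPs or activate them, 1 was called higher and 1 lower on col1-ACLP (4.97% of all genes were called) and none with the inhibitor (2.28%). Adamts5 had a log2 fold change of 0.64 (edgeR adjusted p = 1.19e-10) and Adamts4 of -0.76 (edgeR adjusted p = 6.35e-07), both being aggrecanases. Bmp1, which removes the propeptide of biglycan, had 625 ± 20.1 CPM on col1 and 477 ± 12.1 on col1-ACLP and gave a log2 fold change of -0.39 (edgeR adjusted p = 3.29e-07) that was not called. The list median was -0.019 on col1-ACLP and -0.0021 for col1-ACLP+SB.

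Of 14 tested receptors that bind SLRPs or are bound to their signalling, 2 were called higher and 1 lower on col1-ACLP, to be read against the same 4.97% of all genes. Met, the hepatocyte growth factor receptor, which decorin binds, had a log2 fold change of 0.67 (edgeR adjusted p = 4.39e-04), and Ackr3, an atypical chemokine receptor, one of 0.78 (edgeR adjusted p = 5.15e-07). P2rx7, an ATP-gated channel, had 2.55 ± 0.813 CPM on col1 and 0.771 ± 0.323 on col1-ACLP and gave a log2 fold change of -1.71 (edgeR adjusted p = 0.00892). None was called on col1-ACLP+SB, where 2.28% of all genes were. Ackr3 was at 0.57 there and became the 1 call when col1 replicate 2 was left out. The list median was -0.22 on col1-ACLP and -0.21 in the col1-ACLP+SB libraries.

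The growth factors and matricellular ligands bound by SLRPs had 11 tested genes, of which 3 were called higher and 0 lower in both comparisons with col1 (2.61% and 1.27% of all genes were called higher). Ccn4 had a log2 fold change of 1.63 (edgeR adjusted p = 1.91e-13), Ccn2 of 1.47 (edgeR adjusted p = 1.25e-10) and Pdgfb of 0.87 (edgeR adjusted p = 4.59e-08) on col1-ACLP, and 1.20, 1.15 and 0.72 on col1-ACLP+SB. Tgfb1, a ligand that decorin, biglycan, asporin and fibromodulin can bind, was at 22.6 ± 1.18 CPM on col1 and 24.8 ± 1.76 on col1-ACLP and gave a log2 fold change of 0.13 (edgeR adjusted p = 0.348). The list median was 0.30 in both comparisons. Gene by gene, the calls of the lists described here were the same without col1 replicate 2 in both comparisons with col1, except for Ackr3 in the col1-ACLP+SB libraries.

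Genes with the most similar pattern over the 12 libraries were found by Pearson's r of log2 CPM, as a description only, since the points share the groups and the scaling. Dcn was most like Ebf1 (r = 0.991), Pi16 (0.988) and Lrrn4cl (0.985), all of which had log2 fold changes below 0 on col1-ACLP (-0.77, -1.06 and -1.32). For Lum the nearest gene was Dcn itself (r = 0.984), then Ezh1 (0.983) and Abca8b (0.979). Podn had Gtf3c5 (0.972), Ssc5d (0.964) and Cited2 (0.955).

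Among members with a log2 fold change above 0, Prelp was most like Col2a1 (r = 0.996), Trpv4 (0.994) and Sorbs2 (0.994), and Fmod like Vldlr (0.991), Galnt10 (0.990) and Calr (0.988). Omd had Tmem45a (0.972), Acsl3 (0.961) and Hax1 (0.954), and Bgn had Gpc1, Sertad4 and Fmnl3, each at r = 0.987. The nearest genes were Bpnt2 (0.954), Polr2m (0.950) and Rrm2b (0.945) for Aspn, and, with the lowest r of any member, Slc35a5 (0.937), D16Ertd472e (0.930) and the unnamed gene ENSMUSG00000120442 (0.925) for Ogn. With ranks in place of values (Spearman's rho) at most 1 of the 3 genes stayed among the nearest 3 of any member, so the order among so many similar genes is loose.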

How the data were processed

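Poly(A) RNA of 12 libraries of 10T1/2 cells was sequenced as paired-end reads. The authors mapped the reads with HISAT2 and deposited the raw counts of 56748 genes, neither normalized nor filtered. The submitters' processing notes name the build mm10, whereas the gene starts and ends in the table match GRCm39, which is used here. The counting tool, its strand setting and its handling of overlapping genes are not given in the sources used here. Total counts ran from 29246154 to 52201922, and, as there are no molecular identifiers, limits set by counts cover counting error only. Among gene symbols, 77 belong to several identifiers, none of them a member.

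The quasi-likelihood test of edgeR 4.0.16 (R 4.3.3) was used on all 12 libraries, with filterByExpr (16465 genes kept, 40283 dropped), TMM factors, 1 mean per group and no other covariate, and Benjamini-Hochberg adjustment over the genes kept. The thresholds of 0.05 on the adjusted p and 0.58 on the log2 fold change follow the study's methods, which used DESeq2. The common dispersion had a square root of 0.153. CPM and FPKM used the TMM effective library sizes and the listed gene lengths. Replicate pairs differed by more than sampling noise (7.32 to 19.7 for chi-square divided by its degrees of freedom). They are thus not repeat reads of 1 library, but these values cannot show whether the cultures were separate. The members, gene lists and tests were chosen with earlier results of these data known. Named genes were all members, the genes called in each list up to the 6 with the largest change, Tgfb1, Col1a1, Col3a1, Bmp1 and Xylt1, and the 3 genes most like each tested member with at least 5 CPM. Col6a1, Col6a2, Comp, Col5a3, Col11a2, Tsku, Scp2, the genes beside members and the markers of other cell types given with values were named after their values were seen.

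The procedure was tested on simulated data, counts of 16465 genes of which 16060 were tested. For col1-ACLP against col1 it recovered 64 of 88 genes changed by a log2 fold of 1 and 86 of 112 changed by 1.5, and it called 2 unchanged genes. For col1-ACLP+SB against col1 these were 28 of 43, 42 of 57 and 3, and for col1-ACLP+SB against col1-ACLP 35 of 45, 39 of 55 and 2. Alternatives changed 1 choice at a time: RLE factors, library size alone, no filter, a minimum mean of 10 counts, protein-coding genes, DESeq2 1.42.0, limma-voom (limma 3.58.1), a fit of the 2 groups compared, a replicate block, adjusted p alone, glmTreat against 0.58, and each library left out in turn.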

Additional observations from a re-analysis of the deposited data

Results flagged for a closer look

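Kera in col1-ACLP replicate 3 stood apart from the other 3 libraries of its group, with 0.134 CPM from 4 counts where the others had 0. With the others all at 0, any count above 0 would have been singled out, so this carries no information beyond those few reads.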

How the results depend on the processing

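Of 621 log2 fold changes of members under 23 alternatives, 597 kept their direction and their call, 9 lost a call, 9 gained one and 6 changed sign. Not every alternative could move these values, so the count overstates how far they were tried. Adjusted p alone and glmTreat keep the main log2 fold change, and a left-out library of the group not compared barely enters it. The sign changes were all of Ogn and close to 0: 0.017 for col1-ACLP against col1 without col1-ACLP replicate 4 (-0.076 to 0.017 with 1 library left out), 0.0047 for col1-ACLP+SB against col1 without col1-ACLP+SB replicate 2 (-0.11 to 0.0047), and, for col1-ACLP+SB against col1-ACLP, 0.0021 with library size alone, 0.00084 and 0.0062 without col1-ACLP replicates 1 and 2 and 0.045 without col1-ACLP+SB replicate 2 (-0.082 to 0.045). With adjusted p alone, 5 members were higher on col1-ACLP and 1 was lower on col1-ACLP+SB against col1-ACLP, and the numbers of genes higher and lower were 1568 and 1385, 757 and 747, and 94 and 149 in the 3 comparisons. With glmTreat against 0.58 only 1 member, Fmod, was higher on col1-ACLP+SB against col1, Omd and Podn lost their calls on col1-ACLP (library size alone also ended that of Omd with SB431542, at 0.57), and 144 and 86, 54 and 27, and 0 and 0 genes were called. The 14 higher and 7 lower genes of col1-ACLP+SB against col1-ACLP became 26 and 20 with no filter, 29 and 17 with DESeq2, 8 higher with limma-voom and 11 lower in a fit of the 2 groups alone. With 1 library left out they ran from 4 to 17 and from 4 to 12, and the members called in that comparison from 0 to 0. Left-out fits gave 3 to 3 members higher and 3 to 3 lower on col1-ACLP, and 2 to 3 higher and 2 to 3 lower with SB431542. Without col1-ACLP replicate 4, 2 members took another rank in the order of levels. The causes were not tested. Libraries of the same replicate number showed no shared deviation over all tested genes (correlations from -0.037 to 0.036), which cannot exclude a pairing in fewer genes. With a replicate block 3 members were called higher and 3 lower on col1-ACLP, 3 and 2 with SB431542 and 0 between them. Fmod was at an edgeR adjusted p of 0.0526 in the last comparison. Depth limits Kera and Xylt1.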
